A study of Rattus norvegicus with 6 samples.

Results

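miR-22 is a microRNA (miRNA), a short RNA that guides Argonaute proteins to messenger RNAs and represses them. Its hairpin precursor is cut into 2 mature strands, rno-miR-22-3p and rno-miR-22-5p in the files, and these 2 rows, chosen by name, were followed here out of 728 mature miRNAs listed in small RNA libraries. The 3 exosome libraries came from small membrane vesicles collected by filtration and ultracentrifugation from conditioned medium. The 3 fibroblast libraries came from the cells, heart fibroblasts isolated from Wistar rats at postnatal days 1 to 2. The labels give the same culture for both groups, growth with 10% serum and penicillin with streptomycin and then 48 h with 1% exosome-depleted serum, after which RNA was taken. The labels name no genetic change and no further agent. They do not say whether the libraries of a group came from separate cultures. A p-value here therefore covers at most the spread between the given libraries, which could be technical. One exosome library had a column with no replicate number and is called the unnumbered library; the fibroblast libraries are numbered 1, 2 and 4.

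One strand of a miRNA duplex usually stays in Argonaute as the guide strand, while the other, the passenger strand, is mostly degraded. The guide strand finds its targets mainly through its seed, bases 2 to 8. For miR-22 the 3p arm is the usual guide strand, and in rodents it is abundant in heart and skeletal muscle. Studies of rodent hearts have linked it to cardiomyocyte hypertrophy, to remodelling under stress and to senescence of cardiac fibroblasts, with Sirt1 and Hdac4 among the messenger RNAs described as its targets.

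The sequences of both arms are shown because their seeds differ, so that a shift from one arm to the other would change the set of possible targets. They were taken from RefSeq on the rat assembly GRCr8, in which 655 of the 728 listed names had a mature sequence. The seed is in capitals and each sequence runs 5′ to 3′.
miR-22-3p: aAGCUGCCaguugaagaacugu
miR-22-5p: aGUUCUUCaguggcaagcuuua
The hairpin, Mir22, lies on the plus strand at chr10:60805331-60805425 of GRCr8, where no other RefSeq gene overlapped it and Mir6326 and Tlcd2 were its nearest neighbours. The submitters' processing notes name another build, rn5, so these coordinates place the sequence and were not used with the counts. Both arms are in capitals here, the 5p arm coming first.
Mir22: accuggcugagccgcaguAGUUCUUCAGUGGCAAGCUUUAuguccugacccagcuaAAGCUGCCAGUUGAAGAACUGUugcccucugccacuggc
Both arms had 22 bases, and 16 bases lay between them. The longest stretch of perfect complementarity between the arms was 9 bases, from base 1 to 9 of miR-22-5p and from base 12 to 20 of miR-22-3p. The seed of the 5p arm therefore pairs with the 3′ part of the 3p arm in the hairpin. None of the other 692 distinct mature names in the RefSeq table, which includes miRNAs not listed in the libraries, shared the seed AGCUGCC or the seed GUUCUUC. Listed miRNAs without a sequence in that table were not compared.

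The libraries differed widely in depth. Exosome libraries held 113129 to 120224 miRNA counts and fibroblast libraries 2439559 to 12508651. A single miRNA, miR-873-3p, took 84.9% to 90.1% of the exosome counts and 0.391% to 2.37% of the fibroblast counts, which left 11825 to 18164 exosome counts for all other miRNAs. In the shallowest exosome library, an undetected miRNA could still hold up to 0.00265% of the counts (3 counts of the total), and floors and intervals cover counting error only, because reads after PCR are not independent molecules. All 8 markers listed for fibroblasts and other mesenchymal cells were read in fibroblasts, at 34.6% to 38.6% of the counts. Most of these counts were of miR-143-3p, which is also typical of smooth muscle. The 7 cardiomyocyte and muscle markers came to 0.00803% to 0.0201% of fibroblast counts. The 7 blood markers that were listed came to 0.0110% to 0.0404%, and the 2 endothelial markers to 0.0100% to 0.0152%. No list had a marker at 0 in all fibroblast libraries.

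miR-22-3p was among the most abundant miRNAs of the fibroblasts and was lower in exosomes. miR-22-5p, far less abundant than miR-22-3p in both, did not pass the test. miR-22-3p had 76, 108 and 594 counts in exosome libraries 1, 2 and unnumbered, against 1123299, 1958040 and 354979 counts in fibroblast libraries 1, 2 and 4. Its share of the exosome counts was 0.0632% (0.0498 to 0.0791 by a 95% Clopper-Pearson interval), 0.0955% (interval 0.0783 to 0.115) and 0.499% (interval 0.460 to 0.541), against 17.6%, 15.7% and 14.6% of the fibroblast counts. The unnumbered exosome library was the highest of its group, and no exosome library came near the lowest fibroblast library. It averaged 0.219% ± 0.243 of exosome and 15.9% ± 1.55 of fibroblast counts (SD, n = 3 each; exact two-sided permutation p = 0.1, adjusted p = 0.12 over 11 such comparisons). With 3 against 3 libraries this two-sided permutation test cannot give less than 0.1.

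The lower share was also seen without the miRNA that fills most of the exosome total. With miR-873-3p left out of the total, miR-22-3p made up 0.418%, 0.753% and 5.02% of the counts in exosome libraries 1, 2 and unnumbered, against 17.8%, 15.7% and 14.9% in fibroblast libraries 1, 2 and 4. The groups did not overlap on this scale either. In CPM a lack of overlap was seen for 39.3% of all tested miRNAs. miR-22-3p averaged 2.06% ± 2.57 of these exosome counts and 16.2% ± 1.51 of the fibroblast counts (SD, n = 3 each, exact two-sided permutation p = 0.1).

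**Figure D1:**
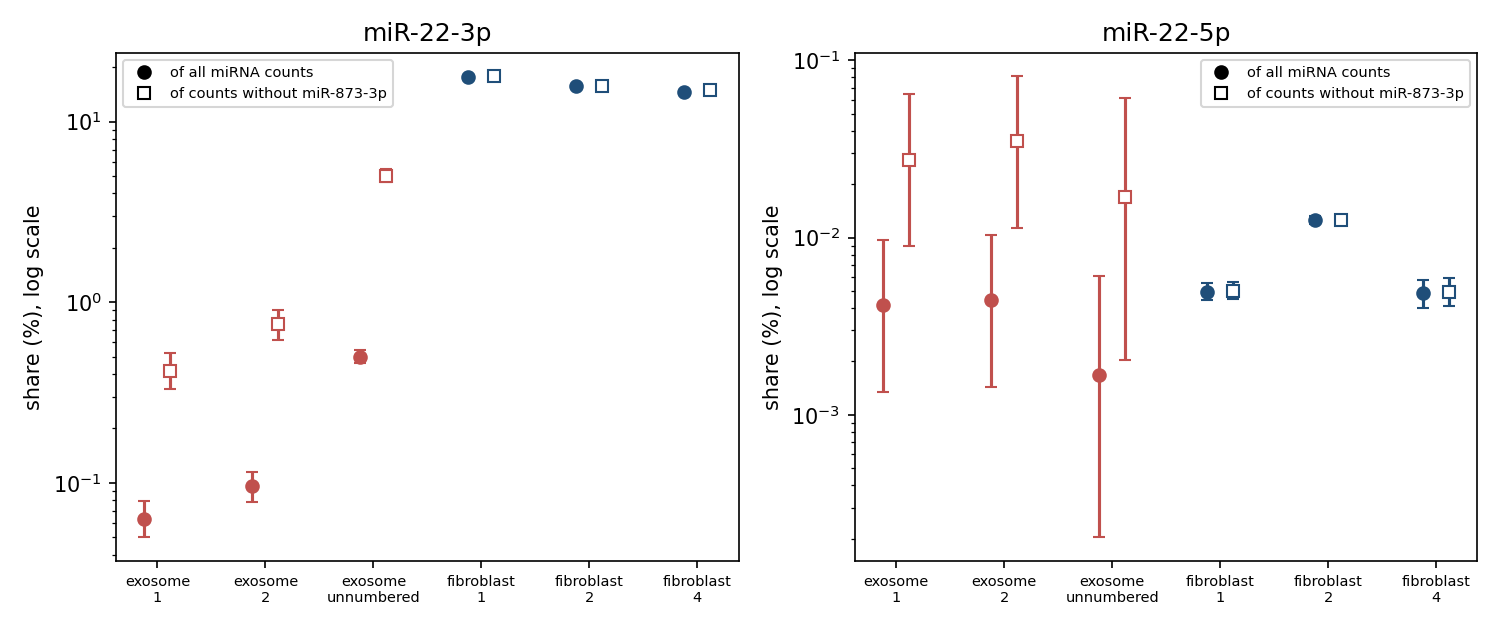
Share of counts (%, log axis) of miR-22-3p (left) and miR-22-5p (right) in each library, exosomes in red and fibroblasts in blue, with 95% Clopper-Pearson intervals. Filled circles are shares of all miRNA counts and open squares shares of the counts without miR-873-3p. The exosome squares of miR-22-3p, at 0.418% to 5.02%, lie below all fibroblast values, whereas those of miR-22-5p, at 0.0169% to 0.0349%, lie above them.

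Depth-scaled counts (CPM, with the library size adjusted by TMM, a trimmed mean of ratios between libraries) also put every exosome library below every fibroblast library. The order among the fibroblast libraries changed. miR-22-3p had 471, 846 and 11527 CPM in exosome libraries 1, 2 and unnumbered, against 182015, 78714 and 183683 CPM in fibroblast libraries 1, 2 and 4. It was 34.7-fold lower in exosomes, with -5.12 as the log2 fold change (SE 2.03, adjusted p = 0.041, quasi-likelihood test of edgeR adjusted by Benjamini-Hochberg over all miRNAs). Of all 698 miRNAs that passed the filter on low counts, 209 were called, 29.9% of those tested; 130 of these were lower, 18.6% of those tested, and the median log2 fold change was -0.15. Among the 100 most abundant fibroblast miRNAs 76% were lower, so that the call of miR-22-3p is the usual one at its abundance. Only 10 of the 698 tested miRNAs had a lower log2 fold change.

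The call was lost when either numbered exosome library was left out. Without exosome library 1 the log2 fold change was -4.61 (edgeR adjusted p = 0.19) and without exosome library 2 it was -5.15 (0.14), and neither passed. With the total without miR-873-3p as the library size it was -2.97 (SE 0.89, edgeR adjusted p = 0.0031). Without the unnumbered library it was -7.91 (SE 1.72, edgeR adjusted p = 6.3e-05), and over all settings run the adjusted p lay between 4.3e-08 and 0.19. These are relative levels, and fewer vesicles with miR-22 and less miR-22 per vesicle cannot be told apart in bulk libraries.

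In each library miR-22-3p kept a high rank. It was ranked 43, 21 and 6 of 728 miRNAs by counts in exosome libraries 1, 2 and unnumbered, against 2 in all 3 fibroblast libraries. By mean CPM it was ranked 7 in exosomes and 2 in fibroblasts. Its exosome neighbours by mean CPM included miR-143-3p at rank 6 and miR-181a-5p at rank 8, but the means of all 3 had an SD larger than or close to the mean (4281 ± 6278 CPM for miR-22-3p, 4398 ± 7052 for miR-143-3p and 2853 ± 2924 for miR-181a-5p), so this order is not beyond their spread. In fibroblasts miR-143-3p, which is typical of smooth muscle, stood above it at 236494 ± 112085 CPM, against 148138 ± 60128 CPM for miR-22-3p (SD, n = 3). miR-21-5p, widely studied in cardiac fibrosis, stood below it at 80475 ± 29101 CPM (SD, n = 3). By counts the order of these 3 was the same in all 3 fibroblast libraries.

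Ratios within a library do not depend on the scaling between libraries. miR-22-3p had 5.07, 1.5 and 0.920 counts per count of miR-143-3p in exosome libraries 1, 2 and unnumbered, against 0.765, 0.637 and 0.528 in fibroblast libraries 1, 2 and 4. The ratio was higher in every exosome library than in any fibroblast library (mean log2 ratio 0.93 ± 1.27 in exosomes and -0.65 ± 0.27 in fibroblasts, SD, n = 3 each; exact two-sided permutation p = 0.1, adjusted p = 0.12). The 5.07 of exosome library 1 rests on only 15 counts of miR-143-3p, where exosome libraries 2 and unnumbered held 72 and 646. How many ratios of other miRNAs also lacked overlap was not counted. Against miR-21-5p the ratio was 1.00, 1.83 and 2.08 in the exosome libraries, against 2.16, 1.59 and 1.71 in the fibroblast libraries. Here the groups overlapped (exact two-sided permutation p = 0.8, adjusted p = 0.8).

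miR-22-5p, the passenger strand, was far scarcer than miR-22-3p in cells and vesicles. It had 5, 5 and 2 counts in exosome libraries 1, 2 and unnumbered, against 316, 1571 and 118 counts in fibroblast libraries 1, 2 and 4. These were 0.00416%, 0.00442% and 0.00168% of the exosome counts, against 0.00495%, 0.0126% and 0.00484% of the fibroblast counts. The exosome shares lay below the fibroblast shares, but the interval of each exosome library (0.00135 to 0.00971%, 0.00144 to 0.0103% and 0.000204 to 0.00607%) reached past the lowest fibroblast share. The share in the unnumbered library lay under the floor of 3 counts. All 3 intervals lay below the share of fibroblast library 2, 0.0126%. A share lower than in every fibroblast library was therefore not established at this depth.

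The direction for miR-22-5p turned with the scaling. Without miR-873-3p in the total its shares were 0.0275%, 0.0349% and 0.0169% in the exosome libraries, against 0.00502%, 0.0126% and 0.00495% in the fibroblast libraries, higher in all 3 exosome libraries (exact two-sided permutation p = 0.1). With TMM it had 31.0, 39.2 and 38.8 CPM in exosome libraries, against 51.2, 63.2 and 61.1 CPM in fibroblast libraries, lower in all 3. The TMM factors were 1.34, 1.13 and 0.433 in exosome libraries 1, 2 and unnumbered. The 2 counts of the unnumbered library thus came to nearly the same CPM as the 5 counts of exosome library 2. The groups did not overlap in CPM, which was so for 39.3% of all tested miRNAs. The log2 fold change was -0.71 (SE 0.70, 95% interval -2.08 to 0.65) and did not pass (edgeR adjusted p = 0.48). It was 1.82 (SE 1.05, edgeR adjusted p = 0.12) with the total without miR-873-3p as the library size, a setting that moved the median of all tested miRNAs to 2.37. Over all settings run the adjusted p lay between 0.12 and 0.63.

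miR-22-5p sat in the middle of the fibroblast list, at rank 354 of 698 by mean CPM, and at rank 468 in exosomes. In fibroblasts its neighbours were miR-3099, miR-743b-5p and miR-1843-3p above and miR-23a-5p, miR-216a-5p and miR-543-3p below, at means of 58.0 to 59.4 CPM against 58.5 ± 6.38 CPM for miR-22-5p (SD, n = 3). None of these levels differed from it beyond the spread. In exosomes its neighbours were miR-153-5p, miR-101b-5p, miR-505-3p, miR-187-3p, miR-145-5p and miR-224-5p, at 36.0 to 37.4 CPM against 36.3 ± 4.64 CPM, and they had 1 to 10 counts in each exosome library. The SD of miR-22-5p in exosomes rests on 5, 5 and 2 counts scaled by TMM. Of the fibroblast neighbours, miR-3099 (log2 fold change 2.36, SE 0.63) and miR-23a-5p (2.84, SE 0.66), the passenger strand of miR-23a, were higher in exosomes (edgeR adjusted p = 0.0014 and 0.00025), as 11.3% of tested miRNAs were.

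The arms of miR-22 were compared within each library. miR-22-5p made up 6.17% (95% Clopper-Pearson interval 2.03 to 13.8), 4.42% (1.45 to 10.0) and 0.336% (0.0407 to 1.21) of the miR-22 reads in exosome libraries 1, 2 and unnumbered, against 0.0281% (0.0251 to 0.0314), 0.0802% (0.0763 to 0.0842) and 0.0332% (0.0275 to 0.0398) in fibroblast libraries 1, 2 and 4. Every exosome library had a larger 5p share than every fibroblast library, although the interval of the unnumbered library overlapped that of fibroblast library 2. How many other hairpins had shares without overlap was not counted. Each miR-22-5p read was matched by 15.2, 21.6 and 297 miR-22-3p reads in exosome libraries 1, 2 and unnumbered, against 3555, 1246 and 3008 in fibroblast libraries 1, 2 and 4.

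**Figure D2:**
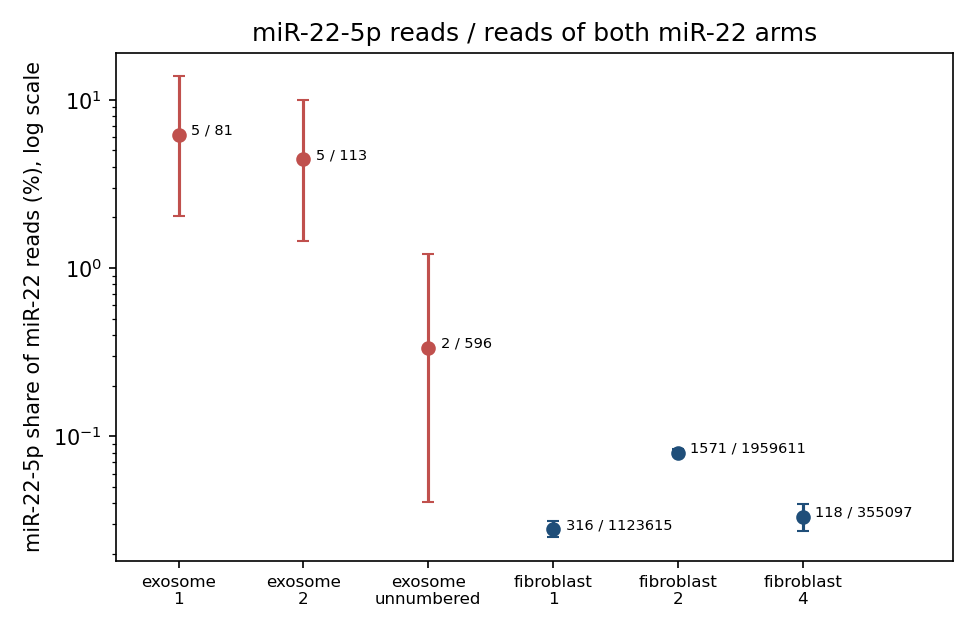
Share of miR-22-5p in the reads of both miR-22 arms (%, log axis) in each library, exosomes in red and fibroblasts in blue, with 95% Clopper-Pearson intervals and the counts behind each share. The exosome libraries lie between 0.336% and 6.17% on 2 to 5 reads of miR-22-5p, above the fibroblast libraries at 0.0281% to 0.0802%.

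The log2 ratio of 5p to 3p counts averaged -5.52 ± 2.34 in exosomes and -11.21 ± 0.81 in fibroblasts (SD, n = 3 each; exact two-sided permutation p = 0.1). The fitted ratio was 4.40 higher on the log2 scale in exosomes (edgeR's diffSpliceDGE with Benjamini-Hochberg adjustment over 248 hairpins, adjusted p = 5.2e-06, higher in 3 of 3 exosome libraries). This p-value is far below that of miR-22-3p alone, whose log2 fold change had an SE of 2.03 (edgeR quasi-likelihood adjusted p = 0.041). The ratio contains that fold change, so arm p-values here are not taken as a measure of the spread between libraries. The call held without exosome library 1 (log2 difference 3.85, edgeR adjusted p = 0.0017), without exosome library 2 (4.11, 0.00067) and without the unnumbered library (7.10, 7.9e-12), and with no count filter (4.21, 2.2e-05). The difference without the unnumbered library was the largest of these. At the arm ratios of the fibroblast libraries, the miR-22-3p counts of exosome libraries 1, 2 and unnumbered would go with 0.0214 to 0.0610, 0.0304 to 0.0867 and 0.167 to 0.477 reads of miR-22-5p, where 5, 5 and 2 were listed. The difference thus rests on 12 exosome reads. In exosome libraries 1, 2 and unnumbered, 48, 43 and 97 listed miRNAs, miR-22-5p included, had these same counts.

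The authors' deposited normalized table gave the same 5p shares in exosome libraries 1 and 2 and other ones in the remaining libraries. It held 26.3, 33.7 and 0 normalized counts of miR-22-5p in exosome libraries 1, 2 and unnumbered, against 44.6, 46.0 and 50.02 in fibroblast libraries 1, 2 and 4, so that the 2 raw counts of the unnumbered library were not in it. The 5p share of miR-22 from this table was 6.17%, 4.42% and 0% in the exosome libraries, against 0.0279%, 0.0787% and 0.0329% in the fibroblast libraries. The groups overlapped there (exact two-sided permutation p = 0.4, adjusted p = 0.44). In the authors' deposited table of the comparison, miR-22-3p had a fold change of 34.1 and a log2 value of 5.09, both fibroblast over exosome (authors' adjusted p = 5.8e-05), and miR-22-5p a fold change of 2.35 in the same direction (authors' adjusted p = 1).

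A shift toward the scarcer arm was common in these libraries. Of 248 hairpins with both arms past the filter, 83 were called for arm usage, 33.5% of those tested, and in 74 of them, 29.8% of those tested, the arm that was minor in fibroblasts had the larger share in exosomes. The median log2 difference over all 248 was 1.01 on this scale, and 30 hairpins had a larger one than miR-22. The minor arm was defined from the fibroblast counts, and how far that definition sets the direction was not tested. No tested hairpin had a smaller minor-arm share in fibroblasts than miR-22, at 0.0583% of the reads summed over the group, where the median hairpin had 24.9%. In exosomes 2 hairpins had a smaller share of that arm than miR-22, at 1.52%, where the median was 34.9%.

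**Figure D3:**
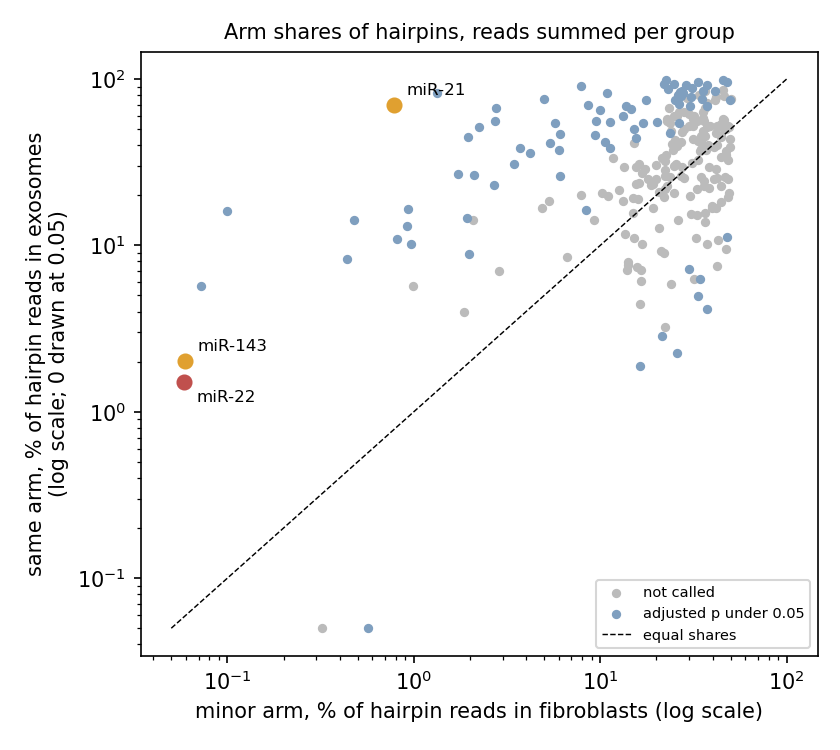
Share of the arm that is minor in fibroblasts, as a percentage of the reads of its hairpin in exosomes (vertical) and in fibroblasts (horizontal), both on log axes, for hairpins with both arms tested. Blue points passed the arm test and gray points did not, and a share of 0 is drawn at 0.05. miR-22 (red) and miR-143 lie at the far left with 0.0583% and 0.0594% in fibroblasts, both above the line of equal shares.

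Most of the other abundant hairpins shifted in the same direction. miR-22 was ranked 2 by reads in fibroblasts, after miR-143 and before miR-21. The 5p arm of miR-143 made up 2.01% of its summed reads in exosomes and 0.0594% in fibroblasts (log2 difference 4.88, edgeR diffSpliceDGE adjusted p = 1.7e-06). The 3p arm of miR-21 made up 69.4% in exosomes and 0.787% in fibroblasts (log2 difference of 3p over 5p 7.31, edgeR diffSpliceDGE adjusted p = 2.7e-07). Of the 10 hairpins with the most fibroblast reads, 8 were called, all 8 with the minor arm higher in exosomes. The 2 not called were miR-199a (log2 difference 0.82, edgeR diffSpliceDGE adjusted p = 0.47) and miR-148b (adjusted p = 0.51), whose minor 5p arm had 0 reads in exosomes and 1464 in fibroblasts. Whether the shift of miR-22 differs from that of miR-143 or miR-21 was not tested.

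The pattern of miR-22-3p over the 6 libraries was shared with other abundant guide strands. The 5 miRNAs with the most similar log2 CPM, by Pearson's r over 6 libraries, were let-7i-5p, miR-30a-5p, miR-125a-5p, miR-148b-3p and miR-199a-3p, with r of 0.998 to 1.000. The libraries fall into separate groups of unlike depth, so that r includes the step between exosomes and fibroblasts, and 87 of 697 miRNAs had an r above 0.9. Their mature sequences are shown because none shares the seed of miR-22-3p.
let-7i-5p: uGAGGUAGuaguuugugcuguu
miR-30a-5p: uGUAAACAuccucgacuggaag
miR-125a-5p: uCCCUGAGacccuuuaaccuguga
miR-148b-3p: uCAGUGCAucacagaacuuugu
miR-199a-3p: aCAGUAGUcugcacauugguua
let-7i-5p, of the let-7 family of differentiated cells, had 11, 13 and 66 counts in exosome libraries 1, 2 and unnumbered, against 116815, 206699 and 34991 in fibroblast libraries 1, 2 and 4. miR-199a-3p, a miRNA of mesenchymal cells, had 9, 9 and 78 counts in exosome libraries, against 150058, 205830 and 48328 in fibroblast libraries. In both, as in miR-22-3p, the unnumbered library held the most exosome counts. Reads of miR-199a-3p and let-7i-5p may be shared with near-identical copies, and their values are uncertain to that extent. All 5 were lower in exosomes, with log2 fold changes from -5.17 for miR-199a-3p to -3.25 for miR-30a-5p.

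By the same measure miR-22-5p had other nearest miRNAs, but its exosome values rest on 5, 5 and 2 counts. Its 5 most similar miRNAs were miR-296-5p, miR-3594-5p, miR-140-3p, miR-145-5p and miR-99b-5p, with r of 0.929 to 0.971, and 16 of 697 had an r above 0.9. In exosome libraries 1, 2 and unnumbered, miR-296-5p had 5, 7 and 2 counts and miR-3594-5p 3, 3 and 1. Whether the arms differ in their patterns was not tested. miR-140-3p, known from cartilage, had 10, 12 and 8 counts in the exosome libraries, against 11299, 33838 and 2860 in the fibroblast libraries (log2 fold change -3.97, SE 0.92, edgeR adjusted p = 0.00023). miR-145-5p, the partner of miR-143 in smooth muscle, had 3, 4 and 3 counts in the exosome libraries, against 3566, 9555 and 1078 in the fibroblast libraries (-3.99, SE 0.82, edgeR adjusted p = 2.8e-05). The arms of miR-22 had an r of 0.89 with each other, and r within the groups was not computed.

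Other miRNAs studied in cardiac remodelling were set beside miR-22. Of a list of 29, 28 were tested, of which 19 were lower in exosomes, 0 were higher and 9 did not pass, where 18.6% of all tested miRNAs and 76% of the 100 most abundant in fibroblasts were lower and 11.3% of all were higher. The median log2 fold change of the list was -3.48, against -0.15 for all tested miRNAs. The list holds many abundant fibroblast miRNAs, so its counts are not separate from abundance. miR-22-3p, at -5.12 (SE 2.03), was lower than all but 3 of them. These were miR-143-3p (-5.75, SE 2.25), miR-21-5p (-5.23, SE 1.86) and miR-199a-3p (-5.17, SE 1.48). With an SE of this size the place of miR-22-3p in the list is uncertain. miR-22-5p, at -0.71, was higher than 24 of the 28.

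Some members with antifibrotic roles were among those lower, and so were other members, such as miR-21-5p (log2 fold change -5.23) and miR-155-5p (-3.35). Those named here are examples, and calls were not counted by role. miR-133a-3p, also on the list, did not pass at 0, 2 and 2 exosome counts (edgeR adjusted p = 0.66 for a log2 fold change of -0.73). miR-29a-3p, which represses collagen messenger RNAs, had 4, 6 and 9 counts in the exosome libraries, against 17152, 20783 and 2692 in the fibroblast libraries (log2 fold change -4.52, SE 0.97, edgeR adjusted p = 5.8e-05). Its relatives miR-29b-3p (log2 fold change -1.94) and miR-29c-3p (-2.09), with 3 and 4 exosome counts in all, did not pass (edgeR adjusted p = 0.15 and 0.060). miR-26a-5p (log2 fold change -4.54, SE 1.48) and miR-30c-5p (-4.33, SE 0.92), which represses connective tissue growth factor, were lower (edgeR adjusted p = 0.010 and 4.9e-05).

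In exosomes the muscle miRNAs of the list were near the limit of detection. miR-499-5p, encoded in a myosin gene, had 0, 0 and 1 counts in the exosome libraries, against 408, 933 and 48 in the fibroblast libraries, and was lower by edgeR (log2 fold change -3.78, SE 1.25; adjusted p = 0.011). miR-208a-3p had 4, 4 and 0 counts in the exosome libraries, against 201, 328 and 9 in the fibroblast libraries, and did not pass (log2 fold change 0.38, SE 0.91). miR-1-3p, the main miRNA of cardiomyocytes, had 0, 3 and 0 counts in the exosome libraries, against 28, 165 and 4 in the fibroblast libraries, and did not pass the count filter. These levels lie far below those of miR-22-3p in every library.

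Markers of other cells were read beside miR-22, since miR-22-3p is not restricted to fibroblasts. The counts of called markers stand against 18.6% lower and 11.3% higher among all tested miRNAs, and 1 or 0 calls in lists this short say nothing about a list. The summed blood markers came to 0.0252% to 0.0283% of exosome counts and 0.0110% to 0.0404% of fibroblast counts. Of these 7 markers 1, miR-451-5p, the main miRNA of red blood cells, was higher in exosomes, with 3, 10 and 11 counts there against 112, 356 and 9 in fibroblasts (log2 fold change 2.82, SE 0.70, edgeR adjusted p = 0.00052). The 3 liver and serum markers came to 0.0124% to 0.0233% of exosome counts and 0.137% to 0.149% of fibroblast counts, with 1 of 3 lower, and the 5 epithelial markers to 0.0109% to 0.0349% and 0.0105% to 0.0261%, with 0 of 4 tested called. The muscle markers came to 0.00504% to 0.0133% of exosome counts, with 1 of 5 tested lower, and the endothelial markers to 0.0840% to 0.0966%, with 1 of 2 (miR-126a-3p) higher. No list had a marker at 0 in all exosome libraries, and the part of such cells in the miR-22 values was not tested.

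**Figure D4:**
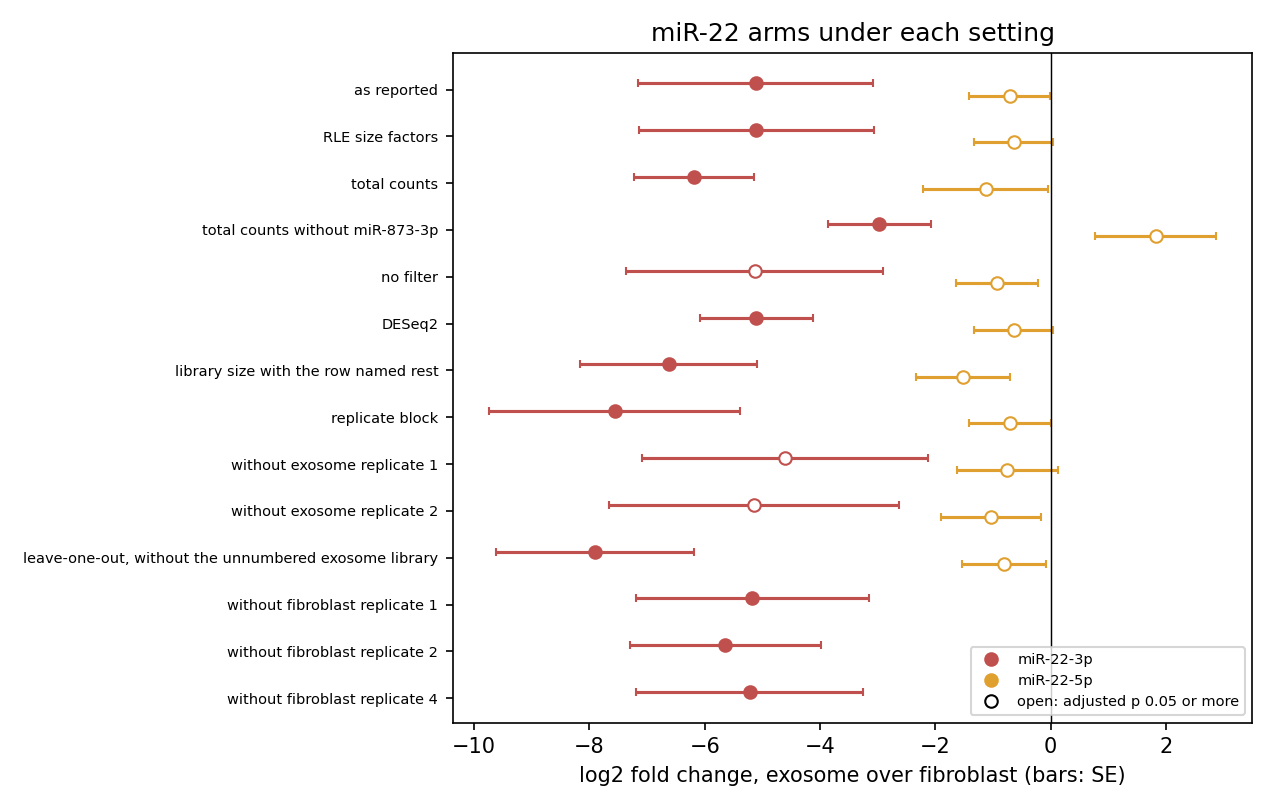
Log2 fold change of both miR-22 arms, exosome over fibroblast, as reported and under each other setting (bars are SE, filled points passed the edgeR or DESeq2 test at an adjusted p of 0.05). miR-22-3p lies between -7.91 and -2.97 and is open in 3 settings, and miR-22-5p lies between -1.52 and 1.82, open in all, with no value where a fibroblast library was left out.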

How the data were processed

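Small RNA from exosomes and fibroblasts was sequenced, 3 libraries per group. Raw read counts of each mature miRNA were deposited by the authors, and these entered every test. Per the file headers, a second deposited table holds a normalized signal per library. It is not a constant multiple of the raw counts: the arms of miR-22 have slightly different ratios to them in each fibroblast library, and whole reads could not be established for fibroblast libraries 1 and 2. Its last row, named rest, names no miRNA, held 63.1% to 84.4% of the normalized signal of a library and was left out except where stated. The deposited comparison gives a fold change ratio, its log2 value and p-values, per the file headers. The submitters' processing notes list rn5 as genome build and cutadapt 1.2.1, CASAVA 1.8.2 and DESeq as tools. The aligner and the counting rule were not given in the sources used here.

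The count model was that of edgeR 4.0.16 run under R 4.3.3 (filterByExpr with minimum count 10 and total 15, TMM, quasi-likelihood test on group, Benjamini-Hochberg adjustment, threshold 0.05). The filter removed 30 of 728 miRNAs and neither arm of miR-22; miR-22-5p could pass it on few exosome reads. The biological coefficient of variation was 54.3%. SE is the size of the log2 fold change over the square root of F. Arm usage was tested with diffSpliceDGE on 248 of 265 hairpins with both arms listed. Similarity used log2 CPM with a prior count of 2. Scripts were tested on simulated data. DESeq2 1.42.0, other scalings, no filter, a block and leaving out each library were tried. Named miRNAs were both arms, the 3 nearest in abundance on each side, the 5 most similar per arm and listed members; the exosome neighbours of miR-22-3p and the arms of the hairpins of miR-143 and miR-21 were added after their values were seen. Members and lists were chosen with earlier results of these data known.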

Additional observations from a re-analysis of the deposited data

How the results depend on the processing

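The fold change of miR-22-3p was negative under every setting run, from -7.91 to -4.61 (log2) with 1 library left out, and -5.14 with no count filter, where it did not pass (edgeR adjusted p = 0.067; the cause was not tested). With the total without miR-873-3p it was -2.97 and passed (0.0031). The fold change of miR-22-5p lay between -1.04 and -0.75 with 1 exosome library left out; with a fibroblast library left out it was not tested, since the filter then left 359 to 414 miRNAs. It turned to 1.82 with the total without miR-873-3p, where its mean exosome share turned from lower to higher (0.0264% against 0.00753% in fibroblasts) and that of miR-22-3p became 2.06%; the total with the row named rest gave 0.000658% for miR-22-5p. With 1 exosome library left out, the mean exosome share of miR-22-3p was 0.0793% to 0.297% and that of miR-22-5p 0.00292% to 0.00429%. The mean 5p share of miR-22 reads in exosomes was then 2.38% to 5.30%, and the arm difference 3.85 to 7.10. Arm usage was not tested with a fibroblast library left out. Calls over all miRNAs, 79 higher and 130 lower in exosomes, became 43 and 121 with total counts, 378 and 36 with the total without miR-873-3p, 35 and 197 with the row named rest in the library size, and 46 to 78 and 86 to 140 with 1 library left out. The median log2 fold change of all miRNAs moved from -0.15 to -0.57, 2.37 and -0.96 in these 3 scalings. Replicate numbers 1 and 2 occur in both groups, but the deviations of same-numbered libraries from their group means had r = -0.069 and 0.16 across miRNAs and the libraries share only a number; with the replicate block miR-22-3p was at -7.56 (edgeR adjusted p = 0.0024), miR-22-5p at -0.71, the arm difference at 6.86, and calls were 96 and 138. A count test on the reads behind the normalized table was not run. Exosome depth limits miR-22-5p, with 2 to 5 reads per library.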
